A study of Homo sapiens with 8 samples.

Results

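The aldo-keto reductases AKR1B10, AKR1B1, AKR1C1, AKR1C2, AKR1C3, AKR1A1 and AKR7A2 were followed through transcript abundance, ribosome-protected fragments (RPFs) and translation efficiency (TE) in cells with and without METTL5. The genes were chosen by name, 7 of the 60718 genes in the count table of the input libraries. All 7 were also among the 11244 genes of the TE table, which holds input and RPF values side by side. The 4 members called stress-inducible here are AKR1B10, AKR1C1, AKR1C2 and AKR1C3, and the 3 called constitutive are AKR1B1, AKR1A1 and AKR7A2.

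METTL5 is the methyltransferase that places N6-methyladenosine on 18S ribosomal RNA. The libraries came from cells labelled HepG2, an established human liver cancer line, that were either METTL5 wild type (METTL5-WT) or METTL5 knockout (METTL5-KO). The knockout was made with CRISPR-Cas9, by removal of part of the gene, and per the study the HepG2 knockout lines were grown from single cells. The wild-type HepG2 cells in the study's blot of METTL5 protein also came from a single clone. The clone behind each replicate is not given, so differences between clones cannot be told apart from the effect of genotype. All cells received cycloheximide, which stops ribosomes on the message, shortly before lysis. Each lysate gave both a sample of whole RNA, called input, and a portion treated with micrococcal nuclease, which leaves the RPFs. There were 4 groups, METTL5-WT input, METTL5-KO input, METTL5-WT RPF and METTL5-KO RPF, with 2 libraries in each. Nothing in the labels says that the replicates were separate cultures, so p-values measure the spread between these libraries, which may be technical.

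Aldo-keto reductases use NADPH to reduce aldehydes and ketones to alcohols. AKR1B10 reduces reactive and retinoid aldehydes, AKR1B1 is aldose reductase, the entry enzyme of the polyol pathway, and AKR1A1 is the general aldehyde reductase. AKR1C1, AKR1C2 and AKR1C3 act on steroids and prostaglandins as well as on xenobiotic carbonyls, and AKR7A2 reduces succinic semialdehyde and aflatoxin aldehyde. AKR1B10 and the AKR1C genes are textbook targets of NRF2 (gene NFE2L2), the transcription factor that KEAP1 holds back until oxidants or electrophiles arrive and that binds the antioxidant response element.

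Input libraries held 10710226 to 15307257 counts over all genes, of which 10062407 to 14371657 fell on the genes of the TE table. On the same genes RPF libraries held 3970779 and 4592443 reads in METTL5-WT against 8626705 and 9255921 in METTL5-KO, so low genes were least precise in METTL5-WT RPF. METTL5 checked the labels first. In input, 490 and 542 counts in METTL5-WT stood against 208 and 151 in METTL5-KO, and in RPF 158 and 226 reads stood against 41 and 21. Both layers were lower in the libraries labelled METTL5-KO, with log2 changes of -1.86 ± 0.18 (SE) in input (edgeR adjusted p = 7.17e-08) and -3.56 ± 0.30 in RPF (limma adjusted p = 1.95e-07).

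The cell line label was checked against defining liver markers, and the data went against it. Of 10 hepatocyte and liver cancer markers (ALB, AFP, APOA1, APOA2, APOB, TTR, FGB, SERPINA1, TF and HNF4A), 3 (TTR, FGB and SERPINA1) had 0 counts in all 4 input libraries and the highest count of any was 9. Summed, they gave 6 and 4 counts in METTL5-WT against 7 and 14 in METTL5-KO, at most 0.915 CPM (counts scaled to the size of the library), and 0 of the 10 were in the TE table. Of 5 fibroblast markers 4 exceeded 10 counts in at least 1 input library, led by COL3A1 with 2536 to 3317 counts and COL1A1 with 429 to 937. DCN had 83 to 170 counts, and LUM had 1 and 1 in METTL5-WT against 7 and 14 in METTL5-KO. COL1A2 went the other way, with at most 1 count in any input library. The sum of the 5 was 341.7 and 340.4 CPM in METTL5-WT against 262.5 and 281.7 in METTL5-KO, most of it COL3A1. The sums of 4 endothelial markers were 7 to 14 counts and those of 5 blood markers 0 to 11 counts per library. The cells are therefore called by their label without a statement on tissue, and what part the identity of the cells plays in the results below was not tested.

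AKR1C1 (chromosome 10, 4963253 to 4983283, plus strand), AKR1C2 (chromosome 10, 4987400 to 5018031, minus strand) and AKR1C3 (chromosome 10, 5035354 to 5107686, plus strand) lie next to each other without overlap in hg38. AKR1B1 (chromosome 7, 134442356 to 134459284, minus strand) and AKR1B10 (chromosome 7, 134527567 to 134541412, plus strand) form a second pair. AKR1A1 (chromosome 1, 45550543 to 45570049, plus strand) and AKR7A2 (chromosome 1, 19303965 to 19312146, minus strand) stand alone. The AKR1C genes have coding sequences of equal length, 969 bases, which can be laid over each other base by base. AKR1C1 and AKR1C2 differed at 19 of these bases (98% identical), and their longest identical run was 186 bases. AKR1C3 was 91.4% identical to AKR1C1 and 91% to AKR1C2.

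The stretch in which AKR1C1 and AKR1C2 differ most is shown first, because fragments from it can be assigned to a gene. It covers coding bases 103 to 162, in exon 2 of 9 of the canonical transcripts, at chr10:4965932-4965991 (plus strand) for AKR1C1, chr10:5001604-5001663 (minus strand) for AKR1C2 and chr10:5096428-5096487 (plus strand) for AKR1C3. Capitals mark bases that differ from AKR1C2 and, in the AKR1C2 line, from AKR1C1.
AKR1C1: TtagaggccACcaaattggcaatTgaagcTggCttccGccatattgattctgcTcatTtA
AKR1C2: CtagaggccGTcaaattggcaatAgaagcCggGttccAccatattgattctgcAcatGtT
AKR1C3: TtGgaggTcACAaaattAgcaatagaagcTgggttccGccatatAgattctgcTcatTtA
A stretch of the same length without a difference between AKR1C1 and AKR1C2, coding bases 16 to 75 in exon 1, is shown beside it, because a fragment from it cannot be placed. It lies at chr10:4963460-4963519 for AKR1C1, chr10:5003761-5003820 for AKR1C2 and chr10:5094460-5094519 for AKR1C3.
AKR1C1: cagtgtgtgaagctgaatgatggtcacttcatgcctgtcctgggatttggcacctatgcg
AKR1C2: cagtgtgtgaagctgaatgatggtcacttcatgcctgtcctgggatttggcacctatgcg
AKR1C3: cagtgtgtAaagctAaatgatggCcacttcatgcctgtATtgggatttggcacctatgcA
The first stretch held 10 differences between AKR1C1 and AKR1C2 out of the 19 in the whole coding sequence, and the second held 0. AKR1C3 differed from AKR1C2 at 13 bases of the first stretch and at 6 of the second.

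Only uniquely mapped reads were counted, and RPFs were 25 to 34 bases long, so shared sequence lowers a member's count. Of the 30-base windows along the coding sequence, 28% in AKR1C1 and 28.6% in AKR1C2 were found in no other annotated gene. These genes shared 67.5% of their windows with each other, and 92.2% when 2 mismatches were allowed as in the RPF mapping. The share was 66.2% in AKR1C3, 52.2% in AKR1B10, whose neighbour in sequence AKR1B15 held 34.8% of its windows (73.1% with 2 mismatches allowed), 69% in AKR1B1, 79.5% in AKR7A2 and 100% in AKR1A1. The split of reads between AKR1C1 and AKR1C2 is therefore uncertain, and their sum is given beside them. AKR1C3 shared 23.2% of its windows with AKR1C1 and 23.7% with AKR1C2. With 2 mismatches allowed these shares were 51.8% and 49.5%, so part of the AKR1C3 reads is uncertain too, which that sum does not cover.

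**Figure D1:**
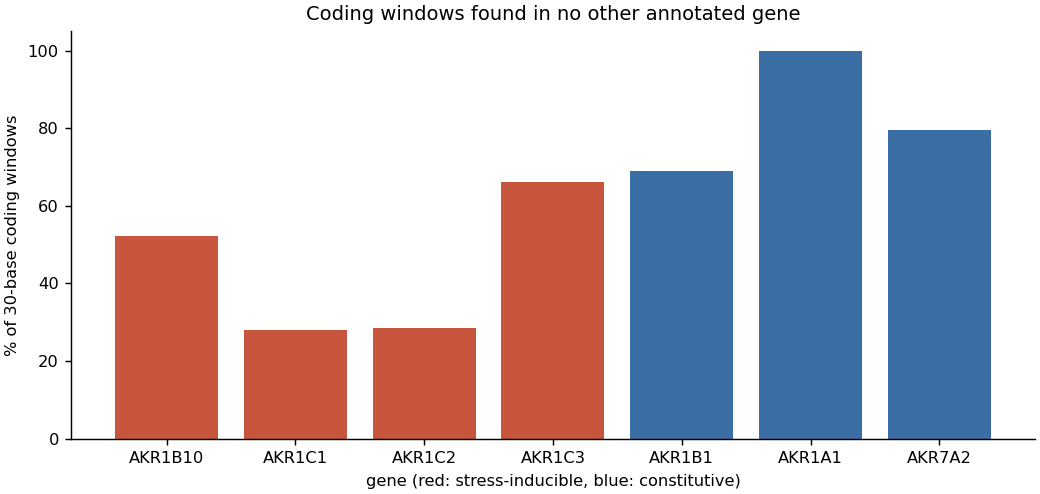
Percentage of 30-base windows of each coding sequence (vertical axis) that occur in no other annotated gene, for the 4 stress-inducible members (red) and the 3 constitutive members (blue). AKR1C1 and AKR1C2 were lowest at 28% and 28.6% and AKR1A1 highest at 100%.

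The 250 bases before the start site were taken from RefSeq (GRCh38.p14), which gave 9 promoters for 6 of the members (all but AKR1B10). AKR1C1 (chr10:4963165-4963414, plus strand) and AKR1C2 (chr10:5003858-5004107, minus strand) are shown because the genes rose together and their upstream sequences were nearly the same. Offset by 4 bases, 246 bases could be compared and 99.6% were identical. The capital marks the 1 base that differed.
AKR1C1: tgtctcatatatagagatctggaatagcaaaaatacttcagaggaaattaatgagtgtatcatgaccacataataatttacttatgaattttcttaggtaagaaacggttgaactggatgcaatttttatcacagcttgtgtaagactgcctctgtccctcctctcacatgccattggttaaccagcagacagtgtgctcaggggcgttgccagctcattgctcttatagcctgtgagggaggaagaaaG
AKR1C2: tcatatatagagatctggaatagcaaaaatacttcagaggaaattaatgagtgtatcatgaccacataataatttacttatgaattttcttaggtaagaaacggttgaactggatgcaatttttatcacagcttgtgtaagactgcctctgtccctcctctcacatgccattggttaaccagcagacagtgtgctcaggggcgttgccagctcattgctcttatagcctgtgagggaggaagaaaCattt
With the AKR1C3 promoters the identity was at most 58.1%. The core letters of the antioxidant response element, TGACNNNGC, were searched on both strands. They were present in 10.9% of 35116 upstream sequences of this length in the table and in 2 of the 9 member promoters, both of AKR7A2. AKR7A2 (chr1:19312147-19312396, minus strand) is shown because it alone held them, with 3 matches in capitals, of which 2 are on the strand printed.
AKR7A2: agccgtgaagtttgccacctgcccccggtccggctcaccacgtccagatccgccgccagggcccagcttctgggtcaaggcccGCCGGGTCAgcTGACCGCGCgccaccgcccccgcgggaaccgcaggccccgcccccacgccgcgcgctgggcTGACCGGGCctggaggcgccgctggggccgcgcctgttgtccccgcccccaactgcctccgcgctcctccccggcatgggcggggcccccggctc
The promoters of AKR1C1, AKR1C2, AKR1C3, AKR1B1 and AKR1A1 in the table held 0 matches. The absence says only that these letters are not in these windows.

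Transcript abundance was compared first, in the input libraries. Of the 7 members, 5 rose in METTL5-KO at an adjusted p under 0.05 (edgeR quasi-likelihood with Benjamini-Hochberg adjustment over 14054 genes) and 0 fell, against 11.8% of all genes tested called higher and 10.6% called lower. They were the 4 stress-inducible members and AKR1A1. The stress-inducible members rose between 3.79-fold and 15.7-fold and AKR1A1 rose 1.61-fold, while AKR1B1 and AKR7A2 were not called. Since the members were chosen with earlier results known, these counts describe the list and do not test it. DESeq2 also called 5 of 7 members, against 8.07% of all genes called higher and 7.83% called lower. Both METTL5-KO values lay above both METTL5-WT values for 6 of the 7 members, against 31.9% of the genes in the TE table. In input and RPF alike, a change in the number of cells expressing a gene and a change in RNA per cell cannot be told apart.

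Values below are the deposited ones, reads divided by a size factor of the library. AKR1C2 was at 252 and 240 in METTL5-WT input against 3805 and 3997 in METTL5-KO input. The groups were far apart, and the log2 change of 3.97 ± 0.13 (SE; edgeR adjusted p = 2.06e-16) was the 68th highest of the 14054. AKR1C3 was at 896 and 849 against 3270 and 3401, again without overlap, a log2 change of 1.92 ± 0.12 (edgeR adjusted p = 1.7e-11). AKR1C1 was lower throughout, at 80.3 and 86.7 against 542 and 559, and changed by 2.71 ± 0.15 (edgeR adjusted p = 2.48e-12). When AKR1C1 and AKR1C2 reads were summed, the log2 change was 3.74 ± 0.13 (edgeR adjusted p = 3.9e-16).

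AKR1B10 was the least abundant member, with 6 and 5 counts in METTL5-WT input against 55 and 65 in METTL5-KO input. Its deposited values were 4.09 and 3.55 against 33.2 and 32.6. The log2 change of 3.07 carried the widest error of the members, 0.48 (SE; edgeR adjusted p = 4.58e-05). AKR1B1, its closest relative among the members (75.2% identical over 948 coding bases), was at 1265 and 1238 in METTL5-WT against 1047 and 1240 in METTL5-KO. These groups overlapped, and the change of -0.14 ± 0.12 was not called (edgeR adjusted p = 0.428). AKR1B1 counts exceeded AKR1B10 counts 310 and 348 times in METTL5-WT against 31.6 and 38 times in METTL5-KO.

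AKR1A1 was at 814 and 800 in METTL5-WT input against 1157 and 1455 in METTL5-KO input. The METTL5-KO values lay above both METTL5-WT values but apart from each other, and the change was 0.68 ± 0.12 (SE; edgeR adjusted p = 0.000291). AKR7A2 was at 349 and 365 against 367 and 473. The lower METTL5-KO value lay barely above the higher METTL5-WT value, and the change of 0.22 ± 0.14 was not called (edgeR adjusted p = 0.271). The 2 METTL5-KO input libraries decided the calls of the last members. Without METTL5-KO replicate 1 AKR7A2 was called higher (0.41, edgeR adjusted p = 0.00204), and without METTL5-KO replicate 2 AKR1B1 was called lower (-0.27, edgeR adjusted p = 0.0206).

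Ribosome-protected fragments showed the same 5 genes. All 4 stress-inducible members and AKR1A1 rose, 5 of 7 members by limma over 11240 genes, against 16.2% of all genes called higher, and 0 fell, against 13.1% called lower. Both METTL5-KO values lay above both METTL5-WT values for 6 of the 7, against 32.4% of all genes. The edgeR test of the reads recovered from the table also called 5, against 14.4%. The rises were 4.61-fold to 16.7-fold in the stress-inducible members and 1.86-fold in AKR1A1.

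AKR1C2 was at 530 and 660 in METTL5-WT RPF against 9660 and 10154 in METTL5-KO RPF. This was the 16th highest RPF change of the 11240 genes, 4.06 ± 0.11 on the log2 scale (SE; limma adjusted p = 7.91e-14). AKR1C3 was at 1392 and 1807 against 8064 and 8483 (2.38 ± 0.11, limma adjusted p = 1.52e-10). AKR1C1 was at 183 and 223 against 1112 and 855 (2.27 ± 0.17, limma adjusted p = 3.47e-08). For each AKR1C gene the lowest METTL5-KO value was well above the highest METTL5-WT value, and relative to its level AKR1C1 had the METTL5-KO libraries furthest apart. Summed, AKR1C1 and AKR1C2 changed by 3.78 ± 0.11 (limma adjusted p = 1.6e-13).

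AKR1B10 had 5 and 4 RPF reads in METTL5-WT against 41 and 43 in METTL5-KO, deposited values of 11.9 and 8.02 against 49.4 and 47.9. Its change was 2.20 ± 0.46 (SE; limma adjusted p = 0.00179). It was the only member whose RPF call was lost in an alternative, with an adjusted p of 0.0507 (limma) without METTL5-KO replicate 1 at a log2 change of 2.18. AKR1A1 was at 2186 and 1911 against 3508 and 4139 (0.90 ± 0.12, limma adjusted p = 4.44e-05). AKR1B1 was at 2932 and 3046 against 3292 and 3453, a small shift without overlap that was not called (0.17 ± 0.10, 95% interval -0.04 to 0.39, limma adjusted p = 0.223). AKR7A2 was at 1086 and 1137 against 854 and 1050, and its change of -0.23 ± 0.14 was not called (95% interval -0.53 to 0.06, limma adjusted p = 0.234).

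**Figure D2:**
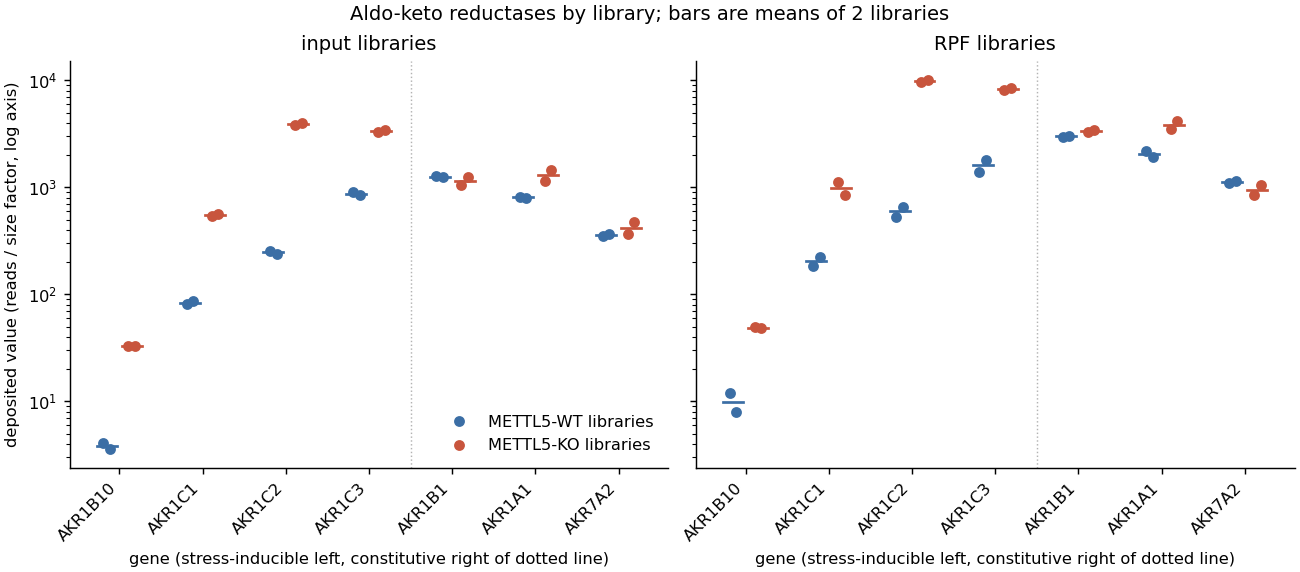
Deposited values of the 7 members (reads divided by size factor, log axis) in each input library (left) and RPF library (right), METTL5-WT in blue and METTL5-KO in red, with bars at the means of 2 libraries. AKR1B10, AKR1C1, AKR1C2 and AKR1C3 separated widely in both panels, from 3.55 to 4.09 against 32.6 to 33.2 for AKR1B10 input up to 530 and 660 against 9660 and 10154 for AKR1C2 RPF, whereas AKR1B1 and AKR7A2 stayed close together.

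The members took a larger share of reads in METTL5-KO. Shares are of all counts of the library in input, and of the reads on genes of the TE table in RPF. The 4 stress-inducible members held 0.0161% and 0.0155% of input counts in METTL5-WT against 0.1% and 0.104% in METTL5-KO, a ratio of means of 6.45. In RPF they held 0.0224% and 0.0293% against 0.182% and 0.189%, a ratio of 7.17. The 3 constitutive members went from a mean of 0.0317% to 0.0375% in input and from 0.066% to 0.0787% in RPF. The stress-inducible genes thus gave 33.7% and 32.9% of all member counts in METTL5-WT input against 74.8% and 71.6% in METTL5-KO input. Within the AKR1C genes, AKR1C2 supplied 20.5% and 20.4% of the input counts in METTL5-WT against 50% and 50.2% in METTL5-KO, and 25.2% and 24.5% against 51.3% and 52.1% of the RPF reads.

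The order of levels was set per length. In METTL5-WT input, in RPKM (reads per kilobase, scaled to library size) computed here over exon length and all counts of the library, AKR1B1 was highest at 44.9 ± 0.595 (SD, n = 2), then AKR1A1 at 33.9 ± 0.329, AKR1C3 at 29.3 ± 1.05, AKR7A2 at 26.3 ± 0.888, AKR1C2 at 5 ± 0.158, AKR1C1 at 1.25 ± 0.0699 and AKR1B10 at 0.283 ± 0.0272. In METTL5-KO input AKR1C3 was first at 111 ± 2.62 and AKR1C2 second at 78.8 ± 2.40, above AKR1A1 at 54.6 ± 8.58, AKR1B1 at 40.8 ± 4.70 and AKR7A2 at 30.8 ± 5.38. AKR1C1 at 8.20 ± 0.148 and AKR1B10 at 2.42 ± 0.0375 kept the last places. No neighbours in these input orders had overlapping libraries. Over coding length the first places in METTL5-KO input swapped, with AKR1C2 at 525 ± 16 and AKR1C3 at 449 ± 10.6, and AKR1C1 moved to rank 5. Input counts cover whole exons, so coding length does not match them and this swap does not settle the order.

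RPF levels were set in RPKM over coding length and the reads on genes of the TE table. In METTL5-WT RPF the order was AKR1B1 (338 ± 14.9, SD, n = 2), AKR1A1, AKR1C3, AKR7A2, AKR1C2, AKR1C1 and AKR1B10 (1.12 ± 0.290). In METTL5-KO RPF AKR1C2 came first at 987 ± 40.3 and AKR1C3 second at 824 ± 34.2. AKR1A1 (379 ± 46.3) and AKR1B1 (343 ± 13.5) had overlapping libraries, as had AKR1C1 (97.9 ± 17.5) and AKR7A2 (85.3 ± 12.9), so these neighbours did not differ beyond their spread. AKR1B10 stayed last at 4.96 ± 0.0798. Relative to coding windows found in no other gene, a length chosen after seeing the data, AKR1C2 led METTL5-KO RPF at 3554 ± 145, ahead of AKR1C3 at 1284 ± 53.2.

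**Figure D3:**
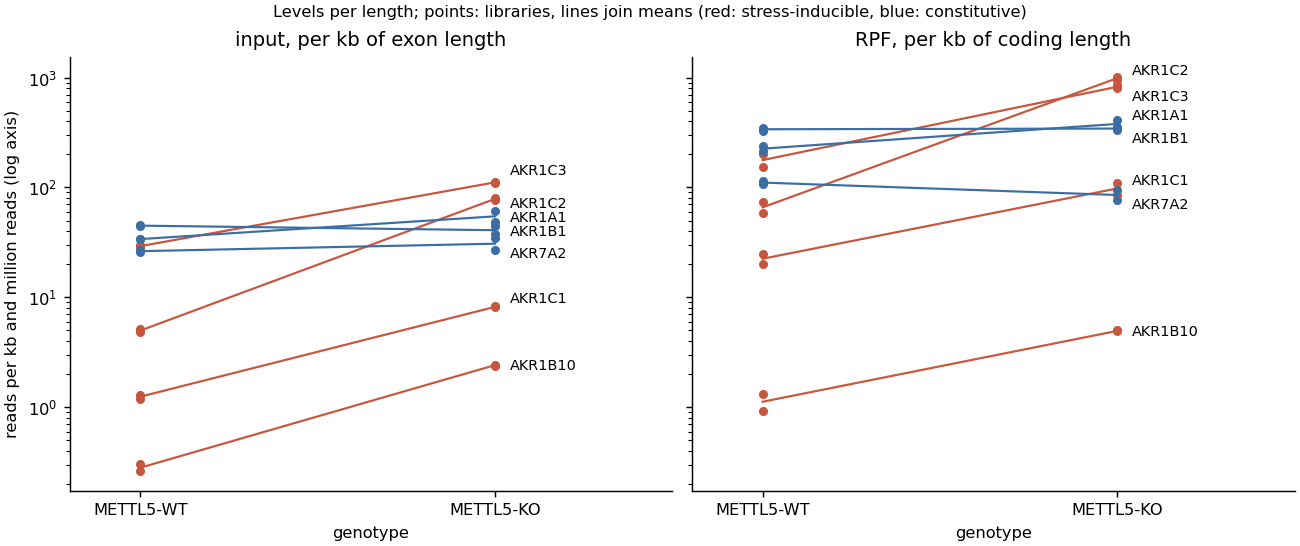
RPKM computed here (log axis) of each member in METTL5-WT and METTL5-KO, input per exon length (left) and RPF per coding length (right); points are libraries and lines join means, red for stress-inducible and blue for constitutive members. AKR1C2 and AKR1C3 lay above all constitutive members in METTL5-KO, at 78.8 and 111 in input and 987 and 824 in RPF, while AKR1B10 was last in each group. AKR1C3 was above AKR7A2 in METTL5-WT already, at 29.3 against 26.3 in input and 177 against 111 in RPF.

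Translation efficiency was tested as the interaction of genotype and library type. It was called for 0 of the 7 members, against 4.79% of all genes by limma (2.7% higher and 2.08% lower) and 6.95% by edgeR on recovered reads (3.11% higher and 3.85% lower), and 3 of 7 had an unadjusted p under 0.05 in either test, against 22.6% of all genes by limma and 24% by edgeR. The number called was also 0 by DESeq2, which gave AKR1B10 no adjusted p, and in the other alternatives run. A difference between RPF and input changes was therefore not shown for any member. The power of that test was limited, as it recovered 120 of 200 changed genes in simulated data. Every planted change there was larger than any TE change of the members, so recovery of changes of the members' size was not measured.

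Per lysate, log2 TE (RPF over input values, with 1 added to each) of AKR1C2 was 1.07 and 1.45 in METTL5-WT against 1.34 and 1.34 in METTL5-KO, so the METTL5-KO values lay between the METTL5-WT values. The TE change was 0.08 ± 0.16 (SE), with a 95% interval from -0.25 to 0.42 (limma adjusted p = 0.803). AKR1C3 was at 0.64 and 1.09 against 1.30 and 1.32, a difference of 0.45 ± 0.16 (95% interval 0.11 to 0.79, limma adjusted p = 0.11). That value was 0.22 without METTL5-WT replicate 1 and 0.67 without METTL5-WT replicate 2. AKR1C1 was at 1.18 and 1.35 against 1.04 and 0.61, a change of -0.44 ± 0.24 (limma adjusted p = 0.279). The summed AKR1C1 and AKR1C2 reads gave 0.03 ± 0.15 (limma adjusted p = 0.939).

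AKR1B10 was at 1.34 and 0.99 in METTL5-WT against 0.56 and 0.54 in METTL5-KO. With 5 and 4 RPF reads in METTL5-WT the change of -0.61 ± 0.65 had a 95% interval from -1.98 to 0.76 (limma adjusted p = 0.616), so a difference of that size was not detectable at this depth. AKR1B1 was at 1.21 and 1.30 against 1.65 and 1.48 (0.31 ± 0.15, limma adjusted p = 0.220), and AKR1A1 was at 1.42 and 1.26 against 1.6 and 1.51 (0.21 ± 0.17, limma adjusted p = 0.492). AKR7A2 was at 1.63 and 1.64 against 1.22 and 1.15, with a change of -0.45 ± 0.20 (95% interval -0.87 to -0.04, limma adjusted p = 0.183). TE did not overlap between genotypes for 6 of the 7 members, against 53.2% of all genes in the table.

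The TE calls over all genes fell from 538 to 265 when a trend with coding GC content was removed from each library, and AKR7A2 had the highest GC content of the members, 64%, above 88.8% of the genes in the TE table. With that trend removed its TE change was -0.13 ± 0.16 (limma adjusted p = 0.705), its RPF change -0.07 and its input change 0.07. The AKR1C genes had 46.6% to 47.8% GC. AKR1C3 then had a TE change of 0.28 ± 0.15 (limma adjusted p = 0.350) and AKR1C1 one of -0.58 ± 0.22 (limma adjusted p = 0.171).

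**Figure D4:**
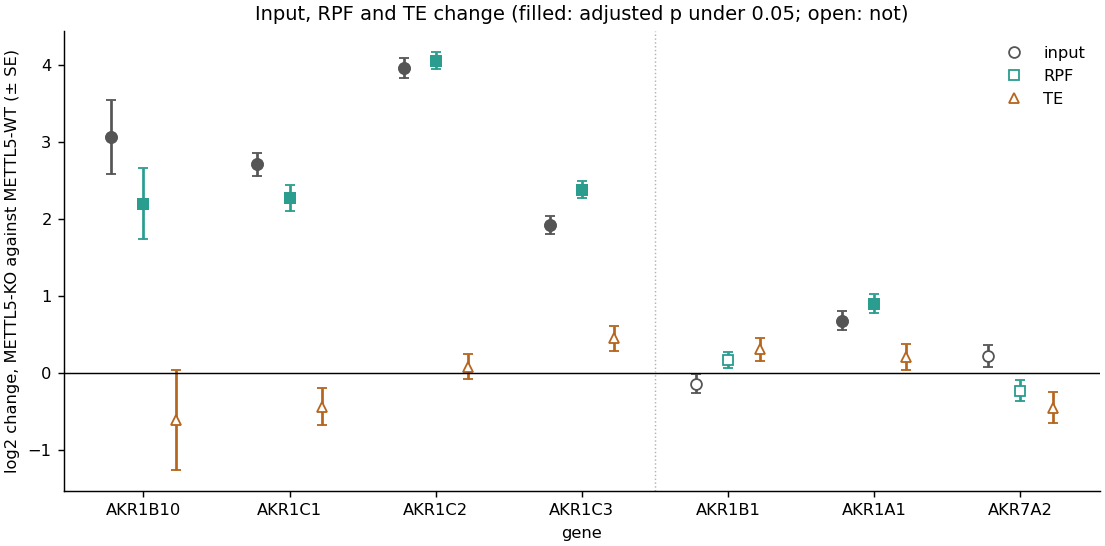
Log2 change of METTL5-KO against METTL5-WT (vertical axis, bars are SE) for each member in input (edgeR), RPF and TE (limma); filled symbols passed an adjusted p under 0.05. Input and RPF are filled for the 4 stress-inducible members and AKR1A1, from 0.68 to 4.06, and 0 of 7 TE symbols are filled.

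Set side by side, the changes of the classes did not overlap in input or RPF but did in TE. Input changes ran from 1.92 to 3.97 in the stress-inducible members and from -0.14 to 0.68 in the constitutive ones. RPF changes ran from 2.20 to 4.06 and from -0.23 to 0.90. TE changes ran from -0.61 to 0.45 and from -0.45 to 0.31. No test was made between the classes, because they were set with these results known.

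The rest of the family was hardly measured. Of 10 further aldo-keto reductases, 9 were too low to be tested in input. AKR1C4 and AKR1D1, steroid and bile acid enzymes of liver, had at most 1 count in any input library, and AKR1C8 had 0. AKR1B15, the close relative of AKR1B10, had 0 and 0 counts in METTL5-WT against 3 and 5 in METTL5-KO, and the sequence shared with AKR1B10 leaves these counts uncertain. KCNAB2, a potassium channel beta subunit of the family, was the 1 gene tested in input, with 431 and 388 counts against 1011 and 1351, a rise of 1.17 ± 0.13 in input (edgeR adjusted p = 3.87e-07) and of 0.76 ± 0.15 in RPF (limma adjusted p = 0.00107). AKR7L, the gene that shares most windows with AKR7A2, was also tested in RPF and TE. At 3 and 5 RPF reads in METTL5-WT against 5 and 4 in METTL5-KO, it was not called (RPF -0.61 ± 0.69, limma adjusted p = 0.545, and TE -2.12 ± 0.98, limma adjusted p = 0.21).

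Other genes of the NRF2 pathway were taken as a list of 26, chosen with earlier results of these data known. In input 23 of 26 were called higher and 0 lower, beside 11.8% higher and 10.6% lower over all genes. The median input change was 0.75 beside 0 over all genes. In RPF 19 of 25 were called higher and 0 lower, beside 16.2% and 13.1%, with a median of 0.76 beside 0.02. The highest input changes were in MAFF, a small MAF partner of NRF2 (1.66 ± 0.34), SLC7A11, the cystine importer (1.49 ± 0.12), OSGIN1 (1.38 ± 0.22), FTL, the ferritin light chain (1.30 ± 0.14), GCLC, the catalytic subunit of glutathione synthesis (1.25 ± 0.13), and HMOX1, heme oxygenase (1.19 ± 0.15). All of these lay under the 1.92 of AKR1C3, the smallest rise among the stress-inducible members. NRF2 itself and KEAP1 were not called. NFE2L2 was at -0.21 ± 0.13 in input (edgeR adjusted p = 0.289) and 0.12 ± 0.13 in RPF, and KEAP1 was at 0.16 ± 0.12 and -0.18 ± 0.12. BACH1, a repressor at the same elements, was called higher in input (0.36 ± 0.13, edgeR adjusted p = 0.0453) and not in RPF (0.08 ± 0.14). Among the other small MAF genes, named after their values were seen, MAFG was called higher in input (0.89 ± 0.16, edgeR adjusted p = 0.000193) and MAFK was not (-0.04 ± 0.15). In RPF MAFG was not called (-0.04 ± 0.24, limma adjusted p = 0.927).

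Of the 25 genes of that list tested in TE, 3 were called by limma, 1 higher and 2 lower, beside 2.7% of all genes called higher and 2.08% lower. By edgeR on recovered reads 1 was called higher and 3 lower, beside 3.11% and 3.85% of all genes. MAFG, at -0.96 ± 0.34, was called by edgeR (adjusted p = 0.0426) and not by limma (adjusted p = 0.103). NQO1, the quinone reductase, rose by 1.14 ± 0.15 (limma adjusted p = 0.00157), from an input change of 0.37 ± 0.11 and an RPF change of 1.53 ± 0.11. FTL changed by -0.71 ± 0.19 (limma adjusted p = 0.0465) and FTH1, the ferritin heavy chain, by -0.67 ± 0.13 (limma adjusted p = 0.0107), each with a smaller rise in RPF (0.59 ± 0.14 and 0.38 ± 0.09) than in input (1.30 ± 0.14 and 1.04 ± 0.11). Over 16 alternatives the adjusted p ranged from 5.24e-11 to 0.147 for NQO1, from 0.00759 to 0.28 for FTL and from 0.000113 to 0.148 for FTH1. The difference between these genes and the members was not tested.

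Other enzymes that reduce carbonyls or oxidize aldehydes formed a list of 30, of which 22 were tested. In input 9 were called higher and 3 lower, with a median of 0.38, beside 11.8% higher and 10.6% lower over all genes. In RPF 10 were called higher and 3 lower, with a median of 0.36, beside 16.2% and 13.1%. CBR3, a carbonyl reductase, was nearest to the AKR1C genes, with 65 and 63 input counts against 314 and 468 (2.24 ± 0.20, edgeR adjusted p = 1.03e-08) and an RPF change of 2.46 ± 0.23. The mitochondrial aldehyde dehydrogenase ALDH2 changed by 1.47 ± 0.23 in input, ALDH3A1 by 1.35 ± 0.16, DHRS4 by 0.99 ± 0.27 and ALDH3A2 by 0.90 ± 0.11. CBR1, next to CBR3 in function, changed by 0.91 ± 0.13 in RPF. The 3 called lower in input were HSD17B12, an enzyme of fatty acid elongation (-0.90 ± 0.15), CBR4 (-0.64 ± 0.18) and ALDH18A1, which makes proline precursors (-0.52 ± 0.13), the last 2 named after their values were seen. PTGR1, which reduces alkenal substrates, was the 1 gene of the 22 called in TE, beside 4.79% of all genes (0.78 ± 0.16, limma adjusted p = 0.0114, 0.000527 to 0.152 over the alternatives). The liver alcohol dehydrogenases ADH1A, ADH1B, ADH1C, ADH4 and ADH6 had 0 counts in every input library.

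AKR1B1 opens the polyol pathway, and the last list joined genes of that pathway with glyoxalases and hexokinases. Of the 7 tested (SORD, KHK, TKFC, GLO1, HAGH, HK1 and HK2), 0 were called in input by edgeR, beside 11.8% of all genes called higher and 10.6% lower. An unadjusted p under 0.05 was found for 2 of the 7, beside about 4810 of all 14054 genes. DESeq2 also called 0, beside 8.07% of all genes called higher and 7.83% lower. SORD, sorbitol dehydrogenase and the next enzyme after AKR1B1, was at 341 and 268 counts against 360 and 517 (0.16 ± 0.16, edgeR adjusted p = 0.506), and KHK, ketohexokinase, at 0.13 ± 0.22. GLO1, the glyoxalase that clears methylglyoxal, was the 1 gene called in RPF (0.47 ± 0.10, limma adjusted p = 0.00248), beside 16.2% of all genes called higher and 13.1% lower. It was also the 1 gene called in TE (0.52 ± 0.14, limma adjusted p = 0.0472), beside 4.79% of all genes. With the GC trend removed its TE change was 0.30 (limma adjusted p = 0.151).

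**Figure D5:**
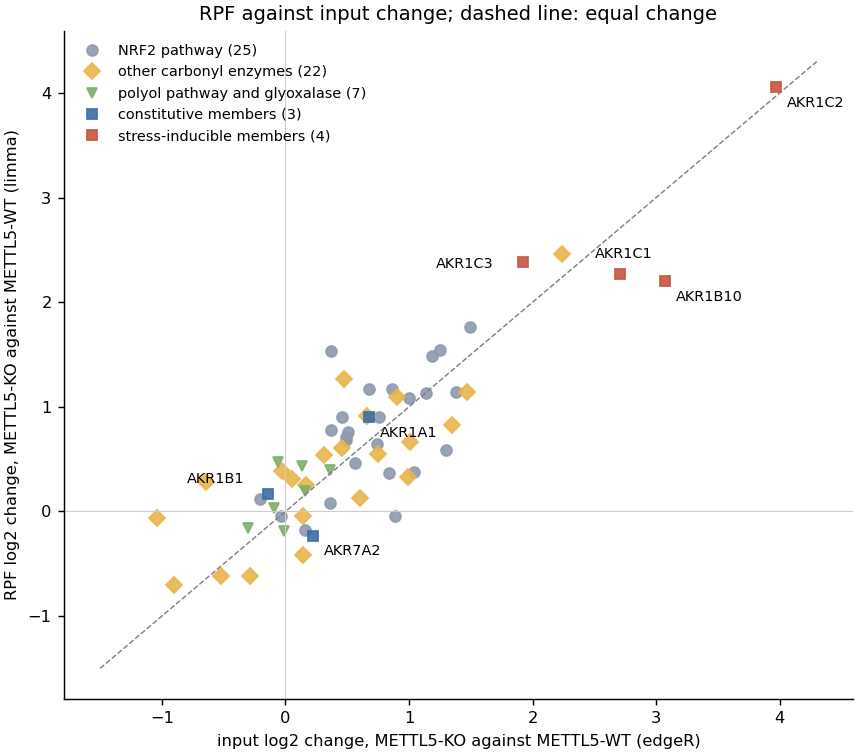
RPF log2 change (limma, vertical axis) against input log2 change (edgeR, horizontal axis) for the members and the partner lists, METTL5-KO against METTL5-WT; the dashed line marks equal change. The 4 stress-inducible members (red) lie at the upper right, from 1.92 to 3.97 in input, with CBR3 (2.24 and 2.46) the only plotted partner gene past 1.92 in input, and the 3 constitutive members (blue) lie between -0.14 and 0.68.

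The genes whose pattern over the 8 libraries was most like each member were sought among 7679 genes with a mean value of at least 100 in both library types, by the root mean square difference of log2 values after subtraction of the METTL5-WT mean. AKR1C2 was nearest to IFI6 (0.13) and PSMB8 (0.24). AKR1C3 was nearest to PLSCR1 (0.07) and PARP9 (0.09), and both AKR1C1 and AKR1B10 were nearest to OAS1 (0.18 and 0.21) and TAP1 (0.21 and 0.22). AKR1A1 was nearest to NDUFB7 (0.06) and TSTA3 (0.07), AKR1B1 to ELP6 (0.04) and MCM5 (0.04), and AKR7A2 to TRMT2A (0.06) and HSPBP1 (0.06). IFI6 had log2 changes of 4.03 in input and 4.27 in RPF beside 3.97 and 4.06 for AKR1C2.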

How the data were processed

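RNA-seq input and ribosome profiling libraries from METTL5-WT and METTL5-KO cells labelled HepG2 were used, 8 libraries in 4 groups of 2. For input, the authors used BBDuk for trimming and STAR 2.7.3a for alignment to hg38, kept unique alignments and deposited raw counts per gene from featureCounts, counted by strand over exons (1.6.0 in the submitters' processing notes, while the header names another version). For RPFs, the authors kept fragments of 25 to 34 bases, removed ribosomal RNA and used RiboToolkit with 2 mismatches and unique mapping. In the TE table the deposited signal, called RPKM by the authors, was found to be reads divided by a size factor. With a tolerance of 0.02 reads, 100% of values were whole reads, and 100% of input values equalled the count table. The design had assumed normalized values, so the log-scale test was kept as the main one. The deposited log2 fold changes and p-values hold the authors' own TE comparison and were not used. Broken lines of the count file (3) were left out, and 0 columns of other samples were present.

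For input counts the quasi-likelihood test of edgeR 4.0.16 was used after filterByExpr and TMM scaling. The SE given with an edgeR change was derived from that test, as the size of the log2 change over the square root of its F statistic. For RPF and TE, log2(value + 1) entered limma 3.58.1 with a variance trend. The added 1 understates changes of low genes. Genes whose mean value was under 1 in input or RPF were left out. Calls were made at a two-sided Benjamini-Hochberg adjusted p under 0.05 over all genes tested. DESeq2 1.42.0 and edgeR on recovered reads were alternatives, in R 4.3.3 and Python 3.11.15. In simulated data with 200 changed genes, edgeR recovered 186 of 198 in input with 2.62% false calls, limma 165 of 200 in RPF with 13.6% false calls and 120 of 200 in TE with 4% false calls, and edgeR on recovered reads 164 of 199 in RPF with 4.09% false calls. Intervals are 95% intervals of the limma fit. Coding lengths, GC content and sequences came from canonical transcripts of GENCODE release 44. For 99.9% of genes the count file and this annotation gave the same chromosome and strand, with starts within 100 kb, and coordinates were read as hg38. The members, lists and named-gene rules were chosen with earlier results of these data known. Named genes were the 7 members, METTL5, up to 6 called genes with the largest change per list and layer, NFE2L2, KEAP1 and BACH1, and the 2 genes with the nearest pattern per member. Input and RPF libraries of the same number came from the same lysate, and the block on the lysate is the paired fit.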

Additional observations from a re-analysis of the deposited data

How the results depend on the processing

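Of 295 alternative values of single members, 287 kept their direction and their side of the threshold, 1 was lost, 2 were gained (both given with the input results) and 5 changed sign. For 1 further value DESeq2 gave no adjusted p. The sign changes were all in TE and not past the threshold: AKR1C2 was at -0.05 with quantile normalization, -0.06 with the GC trend removed, with or without the lysate block, and -0.11 without METTL5-WT replicate 1 (range without each replicate -0.11 to 0.27), and AKR1C1 became 0.03 when summed with AKR1C2, an alternative chosen after seeing the data. The number of members called ranged from 5 to 6 in input, from 4 to 5 in RPF and stayed at 0 in TE when each lysate was left out; the lone library of a group is then assumed to vary like the others.

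Over all genes, 3149 were called in input, 3288 in RPF and 538 in TE. Limma on the TE table called 1947 in input and 1916 with the GC trend removed. TE calls were 837 with DESeq2, 265 with the GC trend removed and 1 without the variance trend, and the cause was not tested. Leaving out each replicate gave 1220 to 5474 calls in input (1220 without METTL5-WT replicate 1, 1368 without METTL5-WT replicate 2 and 5474 without METTL5-KO replicate 1), 1986 to 2772 in RPF (1986 and 2075 without METTL5-KO replicates 1 and 2) and 4 to 266 in TE (4 without METTL5-KO replicate 2, 182 without METTL5-KO replicate 1, 203 and 266 without METTL5-WT replicates 1 and 2).

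The replicate block on the lysate left 0 of 7 TE calls and gave 794 calls over all genes, or 393 with the GC trend removed as well. WT and KO libraries share only a number. Their deviations correlated at 0.0386 across genes in input and -0.00212 in RPF, and the block on the number gave 5 members called in each layer, with 3554 and 3318 calls over all genes. The block changed no member's call.

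Ranks depended on the length used. Input counts cover whole exons, so neither coding length nor coding windows match them. With coding length 5 of 7 members kept their rank in METTL5-WT input and 3 in METTL5-KO input. With windows found in no other gene, 3 kept it in METTL5-WT input, 2 in METTL5-KO input, 3 in METTL5-WT RPF and 5 in METTL5-KO RPF. Depth limited AKR1B10, with 4 to 6 reads in each METTL5-WT library.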

Other observations

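The tested genes around the members in the genome, 10 on each side, were compared in input after the members' values had been seen. Around the AKR1C cluster 3 of 20 neighbours were called higher and 0 lower, with a median log2 change of 0.02 and a range from -1.45 to 1.18. The called neighbours were ADARB2 (1.05), KLF6 (0.57) and IL15RA (1.18), all under the 1.92 of AKR1C3. Around AKR1B1 and AKR1B10 1 of 20 was called higher, TMEM140 at 3.62 (edgeR adjusted p = 0.000108), and the median was 0.07. Around AKR1A1 0 were called higher and 2 lower (NASP at -0.42 and IPP at -0.73), and around AKR7A2 2 were higher and 5 lower. Over all genes tested in input 11.8% were called higher and 10.6% lower.

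The ratio of AKR1C2 to AKR1C1 reads was 3.14 and 2.77 in METTL5-WT input against 7.02 and 7.15 in METTL5-KO input. In RPF it was 2.90 and 2.96 in METTL5-WT against 8.69 and 11.9 in METTL5-KO. The METTL5-KO ratios lay above the METTL5-WT ratios in each layer, and how far the reads that map to both genes would move them was not tested.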
